A study of Mus musculus with 4 samples.

Results

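The probes described here lie on mouse chromosome 12 on both sides of Ppp1r13b, the gene that encodes Aspp1 and that was targeted in these mice. Members were chosen by position alone: every gene probe of the array whose mm9 coordinate starts within 10 Mb of the start of the Ppp1r13b probe, leaving out the immunoglobulin heavy-chain stretch, Ppp1r13b itself, Hsp90aa1, Xrcc3 and ribosomal protein genes. This gave 518 of the 55681 gene probes of the array, under 291 names, of which 171 were RefSeq genes. The stretch left out held 164 probes, and 4 further probes were left out by name. The first member started at position 103072903 and the last at 121256995, with no member between 114383655 and 117333207. Members at lower coordinates than Ppp1r13b are called proximal (422 probes) and those at higher coordinates distal (96 probes).

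The cells were lineage(-) Sca-1(+) cKit(+) bone marrow cells, or LSK cells, the fraction that holds blood stem cells and early progenitors, of male C57BL/6 mice aged 12 weeks. The 4 genotypes were WT, Aspp1-/-, p53-/- (Mx1-Cre(+)p53flox/flox) and Aspp1-/-p53-/- (Mx1-Cre(+)Aspp1-/-p53flox/flox). Mx1-Cre is a recombinase under an interferon-responsive promoter, and the double-stranded RNA analogue pIpC that switches it on was given to mice of every genotype, 5 times from 8 weeks of age, with cells taken 4 weeks after treatment. The dose is 400 μg in the series design, while individual labels give 400, 401, 402 and 403 μg in the order above. RNA of 3 mice was pooled per genotype and hybridised to 1 array, so no difference has a spread between replicates, and in pooled RNA fewer cells of a type and less RNA per cell cannot be told apart. All arrays lay on 1 slide, with WT and Aspp1-/- in slide row 1 and both genotypes without p53 in row 2. Loss of p53 therefore cannot be told apart from Mx1-Cre or from the slide row. Each comparison of Aspp1 loss stays within a row and within a Cre status. Both arrays with Aspp1 lay in slide column 1, however, with Aspp1-/- in column 2 and Aspp1-/-p53-/- in column 4. Loss of Aspp1 therefore cannot be told apart from a place outside column 1.

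Aspp1 is a partner of p53 that favours transcription of pro-apoptotic p53 targets. Genes close to a targeted gene on its chromosome are inherited together with it. The segment around Ppp1r13b holds genes of unrelated function: the serpin cluster, the imprinted Dlk1-Dio3 domain, Akt1 and Traf3 of survival signalling, the Notch ligand Jag2, and, past the heavy-chain locus, Vipr2, Wdr60 and Ncapg2.

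Signals are given as a level, in percent of the 75th percentile signal of the array, and differences as log2 of one array over another. A 2-fold difference (log2 of 1) was used as a rule of size. Levels of different probes cannot be compared, since probes differ in how they hybridise.

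The probes on which the results turn are shown by their first 30 bases of 60, 5′ to 3′ as printed in the array files, with mm9 positions. The first pair shows the targeted gene beside its nearest measured neighbour, whose probe ended 434 bases from that of Ppp1r13b on the opposite strand.
Ppp1r13b (A_55_P1973965, chr12:113066670-113066729, minus strand): ctgccatcccagtgccaccgatgctgtgtg
Zfyve21 (A_51_P396917, chr12:113066176-113066235, plus strand): tggaagcagagtatcacttacctagtgcaa

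The next 3 are the Vipr2 probes, shown together because they read different places of 1 gene and did not give the same difference.
Vipr2 (A_55_P2033676, chr12:117333207-117333266, plus strand): aaactgcactagcgatggatggtcagagac
Vipr2 (A_51_P473205, chr12:117382899-117382958, plus strand): tcctcatgtgtaacttgattgaaacaccaa
Vipr2 (A_51_P342773, chr12:117384455-117384514, plus strand): acatgtgaacacaagcagtcactgagtgca

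The following lie in the same distal group as Vipr2 and differed the same way in both comparisons of Aspp1 loss.
Wdr60 (A_51_P316801, chr12:117446047-117446106, minus strand): cctgcttcttcagaaatgaagacttggtgt
A_55_P2092103 (no gene name in the file, chr12:117518865-117518924, minus strand): cccaaacaaaatggccccagtgagcttagg
2310058N22Rik (A_55_P2373852, chr12:117619193-117619252, plus strand): aagctgggggatatcctcttgtgctatctc
Ncapg2 (A_51_P424810, chr12:117701714-117701773, plus strand): acatgggaagtgcacctgtattcttatagt

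Jag2 is shown as the member that was over 2-fold lower in both comparisons of p53 loss.
Jag2 (A_51_P451338, chr12:114146887-114146946, minus strand): ttgtataaattattcaacggctgtcaggcg

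The Ppp1r13b probe followed the labels, with levels of 2313 in WT and 376 in Aspp1-/- with p53 present, and 2200 in p53-/- and 385 in Aspp1-/-p53-/- cells with p53 lost. The difference on Aspp1 loss was −2.62 with p53 present and −2.51 with p53 lost, each with an error of 0.20 from the error model of the scanner software. The markers of the LSK label were present: all 12 stem and progenitor markers were well above background on every array, with summed levels of 39387 to 40626, and markers of other cell types were measured as well. Pax5 of the B lineage and Cd3g and Cd8a of T cells were not well above background on any array, while the other 2 of 4 T-cell markers were measured on all arrays, with a summed level of the list of 334 to 428. All 8 granulocyte markers were measured on every array, with summed levels of 15339 in WT and 13310 in Aspp1-/- with p53 present, and 13700 in p53-/- and 5288 in Aspp1-/-p53-/- cells with p53 lost. The median difference of the B-lineage markers, 7 of 8 measured on all arrays, on Aspp1 loss was −0.38 with p53 present and −0.09 with p53 lost. All 4 monocyte and dendritic markers were measured, with summed levels of 2976 to 3486 and medians of −0.39 and 0.02 in those comparisons, and all 3 mast cell markers, with 547 to 589 and medians of −0.30 and −0.11. The T-cell medians were −0.04 and −0.08 and the erythroid ones −0.14 and −0.04. The part of these cell types in the differences of the members was not tested.

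Of the 518 members, 211 were well above background on all 4 arrays, 163 proximal and 48 distal, and these form the set measured throughout. They covered 157 genes or transcripts, 104 of them RefSeq genes. A further 252 members were above background on no array, and 34, 15 and 6 were above it on 1, 2 and 3 arrays. The measured members had a median log2 level of −0.49 relative to the 75th percentile, against 0.04 over all 26465 probes measured on all arrays, and a median probe GC content of 45% against 43.3%.

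Few members differed strongly with loss of Aspp1. In Aspp1-/- against WT cells, 0 of the 211 measured members reached 2-fold, against 0.51% of all measured probes. In Aspp1-/-p53-/- against p53-/- cells 1 of 211 did, against 1.55%. No measured member reached 2-fold the same way in both comparisons, against 0.113% of all probes. At 1.5-fold, 8 of 211 (3.79%) passed in the first comparison, against 2.41%, and 10 of 211 (4.74%) in the second, against 4.29%. The median difference of the members was 0.00 in both comparisons, beside 0.01 and 0.00 over all probes. Members were on both sides of 0, with 105 above and 106 below in the first comparison and 104 above and 107 below in the second. The 2 comparisons of Aspp1 loss share no array.

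**Figure D1:**
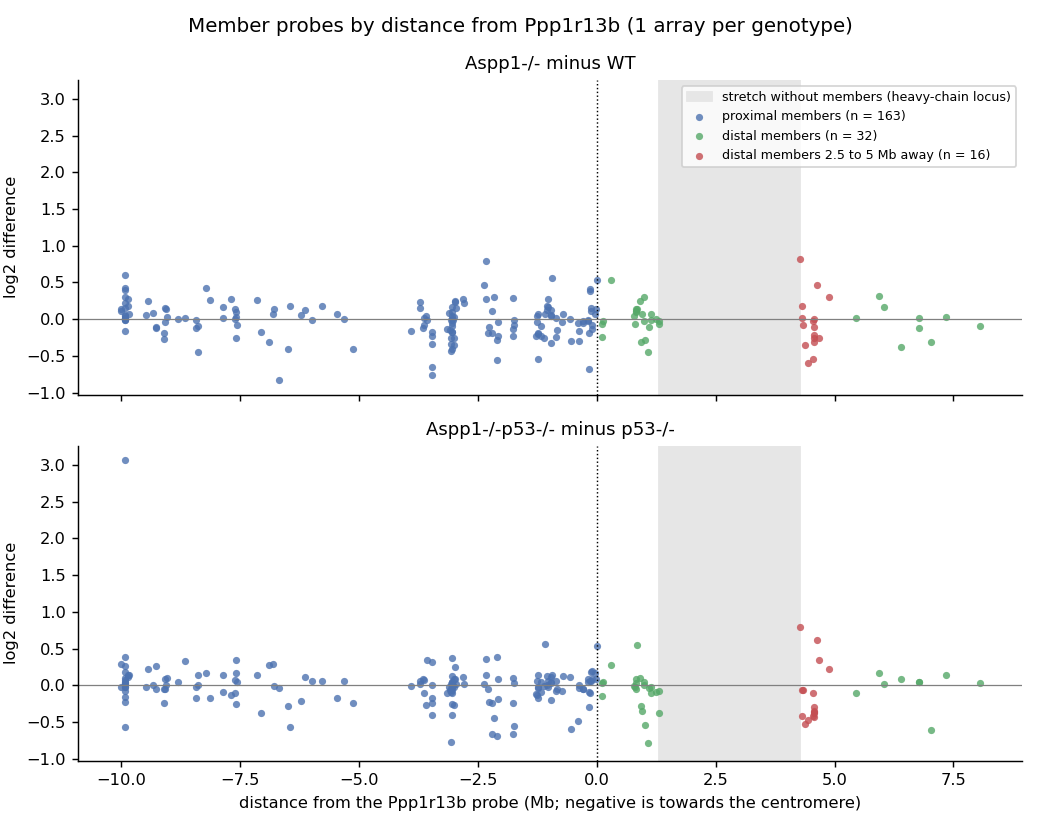
Log2 difference of each of the 211 measured member probes (y axis) against its distance in Mb from the Ppp1r13b probe (x axis), with Aspp1-/- minus WT above and Aspp1-/-p53-/- minus p53-/- below; each point is 1 probe on 1 array per genotype and the grey band is the heavy-chain stretch. Points sit around 0 along the window, the 16 red points past the grey band spread to 0.82 and −0.60 in the upper panel, and 1 proximal point reached 3.06 in the lower panel.

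An additive limma model with a term for Aspp1 and a term for p53, which has 1 residual degree of freedom, called 0 of the 211 members for the Aspp1 term at an adjusted p under 0.05, and 0% of all 26465 probes. The model takes the arrays with and without p53 as replicates of the Aspp1 difference. Its standard errors (SE) thus reflect how far the comparisons of Aspp1 loss disagree, moderated over all probes. They do not measure a spread between mice or between replicate arrays. The lowest limma adjusted p of a member was 0.606, and the Ppp1r13b probe had the same limma adjusted p. Before adjustment, 36 of 211 members (17.1%) had a limma p under 0.05, against 8.04% of all probes and 66 of 761 measured probes (8.67%) on the rest of chromosome 12. Refitting with another background correction, normexp, gave 26 of 211 members (12.3%) under 0.05 before adjustment, against 8.6% of all probes in the same fit, and again 0 called. With probes well above background on at least 1 array it was 21 of 266 (7.89%) against 4.64%, and among brighter probes, with a mean level above 25% of the 75th percentile, 17 of 140 (12.1%) against 5.74%.

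Smaller differences that recurred in both comparisons of Aspp1 loss were counted next. At a log2 difference of at least 0.25 the same way in both, a size chosen after the values were seen, 22 of 211 members (10.4%) passed, 5 higher and 17 lower, against 4.45% of all measured probes and 30 of 761 (3.94%) on the rest of chromosome 12. At 1.5-fold in both, 1 member passed, a Vipr2 probe, against 0.438% of all probes. Among brighter probes 12 of 140 members (8.57%) passed the size of 0.25, against 2.84% of all such probes. The differences of the 2 comparisons correlated across the 211 members with r = 0.32, against 0.20 over all other probes. Those values are descriptions across probes that share arrays and, in part, transcripts.

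The same count was taken by distance from Ppp1r13b. Of the 16 measured probes at 2.5 to 5 Mb distal, all of them past the heavy-chain stretch, 7 (43.8%) differed by at least 0.25 the same way, 2 higher and 5 lower, and r between the comparisons was 0.80. The median size of the mean difference there was 0.27, against 0.084 over all other probes. The 16 probes come from 10 transcripts, and 5 of them read 1 unannotated transcript; without it, 5 of 11 probes passed. Without the whole group, 15 of 195 members (7.69%) passed. Over these 195 members r between the comparisons was 0.24, down from 0.32 over all 211, against 0.20 over all other probes. On the proximal side at the same distance 3 of 38 probes (7.89%) passed, and at 1 to 2.5 Mb proximal 2 of 32. Nearer the gene, 3 of 30 proximal probes within 1 Mb, 2 of 15 distal probes within 1 Mb and 2 of 8 distal probes at 1 to 2.5 Mb passed. At 5 to 10 Mb 2 of 63 proximal and 1 of 9 distal probes did. The limma p before adjustment was under 0.05 for 9 of the 16 distal probes and for 27 of the other 195 members.

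**Figure D2:**
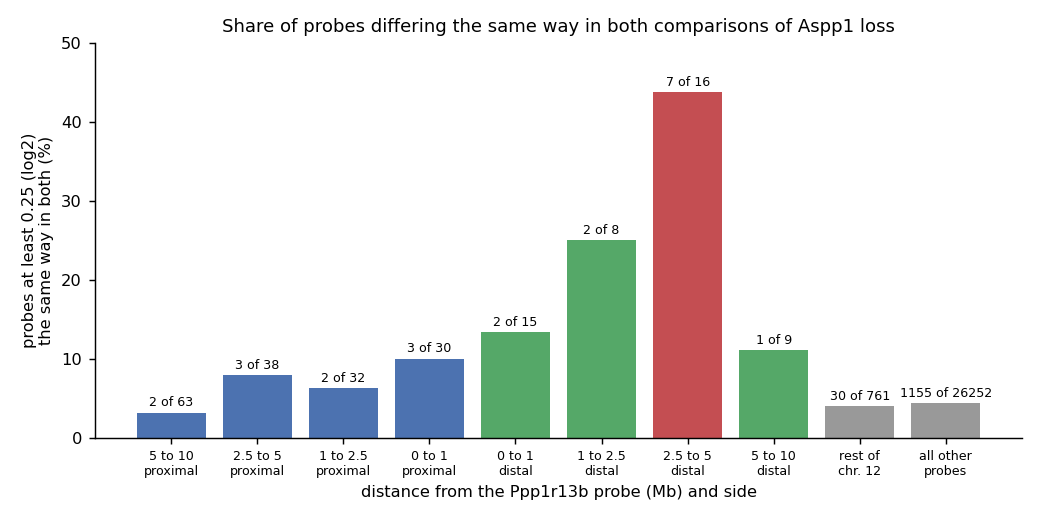
Share in percent of measured probes at least 0.25 (log2) different the same way in both comparisons of Aspp1 loss (y axis), by distance from the Ppp1r13b probe in Mb and side (x axis), beside the rest of chromosome 12 and all other probes; numbers above the bars are probes. The bar at 2.5 to 5 Mb distal holds 7 of 16 probes and the one at 5 to 10 Mb proximal 2 of 63.

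Vipr2 encodes a receptor for vasoactive intestinal peptide and lies first after the heavy-chain stretch. Its probe A_55_P2033676 had levels of 17.4 in WT and 30.8 in Aspp1-/- with p53 present, and 11.6 in p53-/- and 20.2 in Aspp1-/-p53-/- cells with p53 lost. Both arrays without Aspp1 were above their partner with Aspp1, by 0.82 with p53 present (scanner error 0.22) and by 0.80 with p53 lost (scanner error 0.25). The Aspp1 term was 0.81 ± 0.07 (SE; limma adjusted p = 0.606). The other probes of Vipr2 did not follow. A_51_P473205 had levels of 6.49, 6.57, 8.29 and 6.18 in the order WT, Aspp1-/-, p53-/- and Aspp1-/-p53-/-, and A_51_P342773 had 260, 294, 305 and 290. Their differences were 0.02 and −0.42, and 0.18 and −0.07, so the 3 probes of the gene disagree.

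Ncapg2, which encodes a subunit of condensin II, a complex that compacts chromosomes for mitosis, was the other member of that group at 2.5 to 5 Mb that passed 0.25 upward in both. Its levels were 350 in WT and 486 in Aspp1-/- with p53 present, and 330 in p53-/- and 504 in Aspp1-/-p53-/- cells with p53 lost. Both arrays with Aspp1 were thus below both arrays without it, with differences of 0.47 and 0.61 (scanner error 0.20 each), and −0.09 and 0.05 in the comparisons of p53 loss. The Aspp1 term was 0.54 ± 0.08 (SE; limma adjusted p = 0.606).

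The lower members of the group included Wdr60, an intermediate chain of the dynein that moves cargo in cilia. Its levels were 94.9 in WT and 74.1 in Aspp1-/- with p53 present, and 122 in p53-/- and 85.0 in Aspp1-/-p53-/- cells with p53 lost. The difference was −0.36 with p53 present and −0.52 with p53 lost, each with a scanner error of 0.21. The arrays overlapped across p53 status, since the Aspp1-/-p53-/- level lay between those of Aspp1-/- and WT.

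A pair of transcripts without a RefSeq gene, between Wdr60 and Ncapg2, were lower in the same way. The probe A_55_P2092103 had levels of 107, 70.7, 155 and 112 in the order WT, Aspp1-/-, p53-/- and Aspp1-/-p53-/-, with differences of −0.60 and −0.47. For 2310058N22Rik, a cDNA from adult tongue, the levels were 178, 123, 198 and 148, with differences of −0.54 and −0.42. In 2310058N22Rik, unlike A_55_P2092103, both arrays without Aspp1 were below both arrays with it. The 5 measured probes of the coordinate-named transcript chr12:117623500-117643575 on the minus strand lay beside it, with 4 of 5 below 0 in the first comparison, at a median of −0.22, and 5 of 5 in the second, at a median of −0.36. These probes lie side by side in 1 transcript and are not separate observations.

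Other genes of that group did not pass in both comparisons. Esyt2, which tethers the endoplasmic reticulum to the plasma membrane, was at −0.03 and −0.10. Ptprn2, a phosphatase-like protein of secretory granules, was at 0.30 and 0.22 and A_55_P2069550 at −0.26 and 0.35, with opposite signs.

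**Figure D3:**
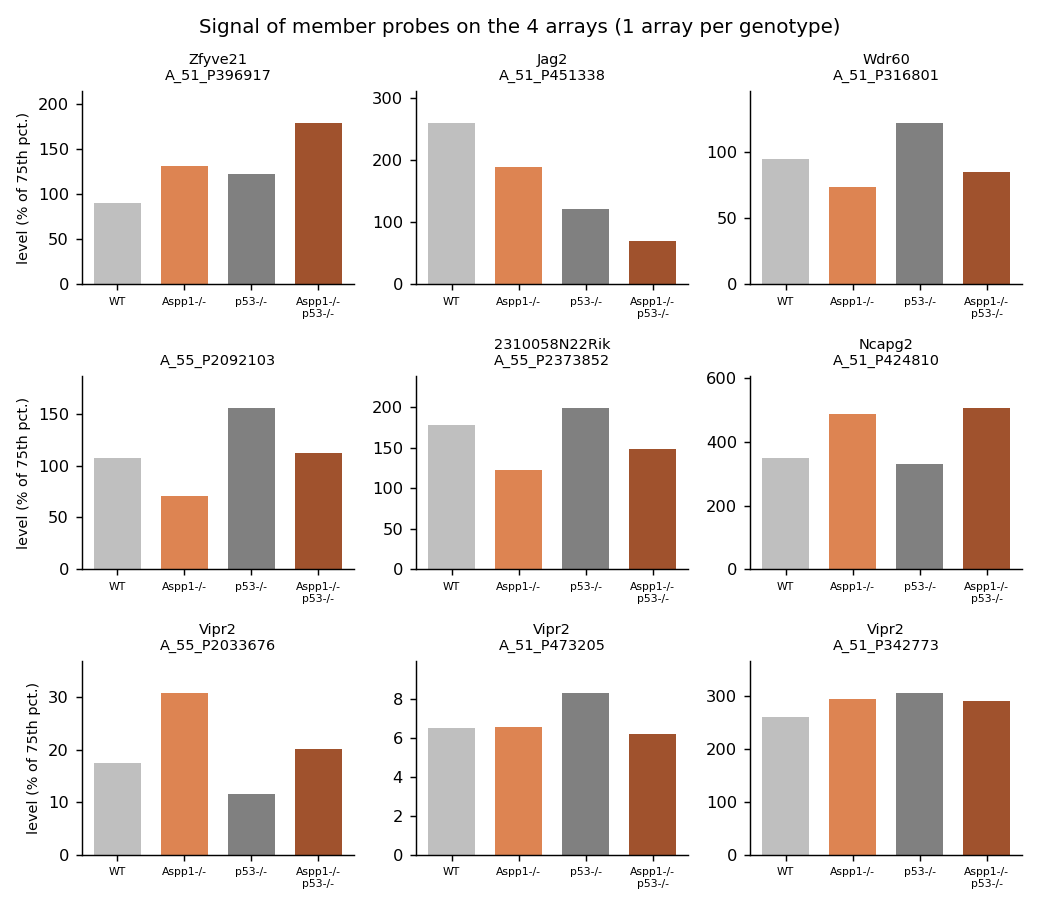
Level of each probe, in percent of the 75th percentile signal of its array (y axis, from 0), on the 4 arrays (x axis), for Zfyve21, Jag2, Wdr60, A_55_P2092103, 2310058N22Rik, Ncapg2 and the 3 Vipr2 probes; each bar is 1 array, so there is no error bar. Ncapg2 is higher on both arrays without Aspp1 (486 and 504 against 350 and 330), and among the Vipr2 probes A_55_P2033676 alone is higher on each array without Aspp1 than on its partner by over 0.25.

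The boundaries of the member set were set by position. At the proximal edge the last measured probe outside, D130020L05Rik, was at −0.20 and −0.07 in the comparisons of Aspp1 loss, and the first inside, a Trip11 probe, at 0.14 and −0.03. At the heavy-chain stretch the last member before it, Crip2, was at −0.03 and −0.37 and the first probe in it, Crip1, at −0.55 and −0.60. At its far end the last probe in the stretch, Zfp386, was at −0.65 and −0.82 and the first member after it was the Vipr2 probe at 0.82 and 0.80. Crip1 and Zfp386 are not members, and enter no count.

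Closest to the targeted gene lay Zfyve21, which encodes a FYVE-domain protein of focal adhesions. Its levels were 90.5 in WT and 131 in Aspp1-/- with p53 present, and 123 in p53-/- and 179 in Aspp1-/-p53-/- cells with p53 lost. WT was lowest and Aspp1-/-p53-/- highest, with the single knockouts between them. The differences were 0.53 and 0.54 for Aspp1 loss and 0.44 and 0.45 for p53 loss, with a scanner error of 0.20 for Aspp1 loss. The Aspp1 term was 0.54 ± 0.07 (SE; limma adjusted p = 0.606) and the p53 term 0.45 ± 0.07 (SE; limma adjusted p = 0.307). Whether either of these 2 neighbouring probes lies in sequence changed by the targeting was not analysed here.

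The other near neighbours listed here were mostly within 0.25. Ckb, Aspg, Pld4 and Zbtb42, also among the nearest measured genes, passed 0.25 in at least 1 comparison and are described below. Proximal to Ppp1r13b, the kinesin light chain Klc1 lay at 0.07 to 0.13 and 0.08 to 0.17 over 2 probes, Coa8 of complex IV assembly at −0.14 to −0.08 and 0.09 to 0.19, the Hsp70 cochaperone Bag5 at 0.11 to 0.15 and 0.06 to 0.18, the kinase Mark3 at −0.02 and 0.05 to 0.09, and the initiation factor Eif5 at −0.05 to −0.03 and −0.06 to −0.04. The tRNA methyltransferase subunit Trmt61a was at 0.41 and 0.05. The TNF-induced Tnfaip2 was at −0.30 to −0.16 in the first comparison and −0.03 to 0.00 in the second, and Exoc3l4 at −0.05 and −0.49. Distal to it, 5033406O09Rik was at −0.07 and 0.03, the ATP synthase component Atp5mpl at −0.02 and 0.05, the formin Inf2 at 0.04 and −0.01, Adssl1 of purine synthesis at −0.07 and −0.03, the pro-apoptotic Siva1 at 0.10 to 0.13 and 0.03 to 0.09, the kinase Akt1 at 0.11 and −0.05, and Cep170b at 0.24 and 0.10. None of these reached 2-fold in either comparison.

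Of the other members near the gene that passed 0.25 in both comparisons, most were lower. Brain creatine kinase, Ckb, was lower on 1 of 2 probes, from a level of 10.4 in WT to 6.46 in Aspp1-/- and from 10.4 in p53-/- to 8.49 in Aspp1-/-p53-/- cells, or −0.69 and −0.30. Its second probe was at −0.19 and −0.09. Cdc42bpb, a kinase that acts downstream of Cdc42, was at −0.30 and −0.60, the lysosomal exonuclease Pld4 at −0.31 and −0.28, and Gpr132, a G protein-coupled receptor of lymphoid cells, at −0.28 and −0.54. Aspg, an asparaginase, was higher at 0.54 and 0.28, from dim levels of 6.89 and 7.61 to 9.99 and 9.25.

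**Figure D4:**
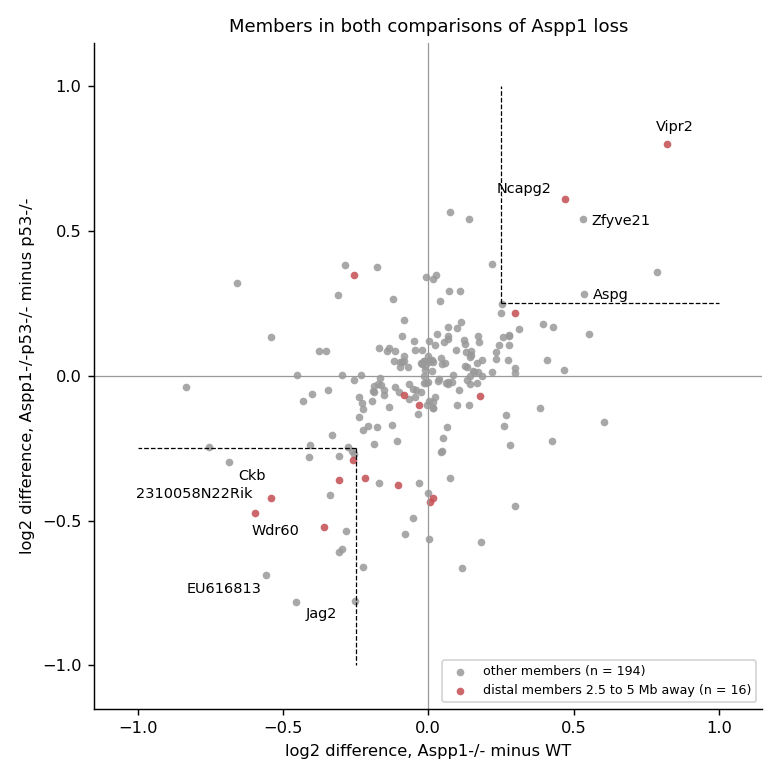
Log2 difference of member probes in Aspp1-/-p53-/- minus p53-/- (y axis) against Aspp1-/- minus WT (x axis), with the 16 probes at 2.5 to 5 Mb distal in red; dashed lines mark 0.25 in both, and 1 member at 3.06 on the y axis lies outside the plot. Vipr2, Ncapg2, Zfyve21 and Aspg lie in the upper right corner and Jag2, EU616813, Wdr60 and 2310058N22Rik in the lower left.

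Farther away, EU616813, a transcript 2.10 Mb proximal in the stretch that holds the Dlk1-Dio3 domain, had levels of 207 in WT and 141 in Aspp1-/- with p53 present, and 195 in p53-/- and 121 in Aspp1-/-p53-/- cells with p53 lost. Both arrays without Aspp1 were below both arrays with it, by 0.56 and 0.69. Sp8, a zinc finger transcription factor at 7.02 Mb distal, was dim and at −0.31 and −0.61. Cyp46a1, the cholesterol 24-hydroxylase, was at −0.34 and −0.41, and Serpina3h at −0.26 in both. A probe of the unannotated transcript chr12:110738120-110769295 was at 0.79 and 0.36, one of chr12:109603526-109647403 at −0.76 and −0.25, one of chr12:110002978-110003360 at −0.25 and −0.78 and one of chr12:111287772-111333890 at −0.22 and −0.66. A second probe of chr12:109603526-109647403 was at −0.18 in both. The other measured probes of these transcripts had smaller Aspp1 terms. They were −0.02 and 0.02 for chr12:111287772-111333890, −0.20 and −0.26 for chr12:110002978-110003360, and 0.21 for chr12:110738120-110769295. 4930421J07Rik was at 0.08 and 0.57. Cyp46a1 and Wdr60 were named after their values were seen, because they passed 0.25 in both.

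The 1 measured member past 2-fold in Aspp1-/-p53-/- against p53-/- was A_30_P01031640, a probe of the unannotated transcript chr12:103151385-103157796 near the proximal edge. Its level was 10.2, 10.1 and 8.11 in WT, Aspp1-/- and p53-/- cells and 67.9 in Aspp1-/-p53-/- cells, a difference of 3.06 from p53-/- and 2.74 from Aspp1-/-. A second probe of the same transcript, A_30_P01019878, had 16.6, 16.6, 30.1 and 20.3, so it was not highest on that array. The 2 probes disagree, and neither was called for the Aspp1 term.

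Some members were above background on only part of the arrays. Where only 1 of the arrays compared was above background, the difference is a bound taken against the lowest signal measured on the dimmer array. With bounds, 7 of 248 members passed 2-fold in Aspp1-/- against WT, against 2.45% of all such probes, and 10 of 240 in Aspp1-/-p53-/- against p53-/-, against 5.66%. Of the 7, 4 were bounds, and of the 10, 9 were. The rest were measured on both arrays compared. Tcl1b5 of the Tcl1 family, related to a lymphocyte oncogene, had a level of 32.8 in WT and was not well above background on the other arrays, which gave −3.27 or lower for Aspp1-/-. Abcb5, a membrane transporter, was measured in Aspp1-/-p53-/- cells alone, at 39.9, or 3.22 or more against p53-/-; it was singled out after its values were seen. No member passed 2-fold the same way in both comparisons of Aspp1 loss with bounds included.

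In none of the 10 gene lists drawn up for the window did a probe measured on all 4 arrays reach 2-fold in either comparison of Aspp1 loss. Over all measured probes only 0.51% did with p53 present and 1.55% with p53 lost, so few were to be found in lists of this length. For survival and TNF-receptor signalling, with 11 measured probes of 8 genes, the median was 0.00 in both comparisons, with 6 above 0 and 5 below in each. The list as drawn up also held the Notch ligand Jag2, which was its lowest probe, at −0.45 and −0.78. Jag2 was the 1 probe of this list that passed 0.25 the same way in both. Traf3, an adaptor of TNF receptors, was at 0.00 and 0.12. In the serpin cluster 13 of 22 genes were above background somewhere and 10 probes of 8 genes on all arrays, with medians of 0.06 and 0.06. Serpina3g, a protease inhibitor of the cluster, had levels of 8192, 8768, 8169 and 9162, and differences of 0.10 and 0.17. Serpina3f lay at 0.00 to 0.03 and 0.07 to 0.35, and Serpina3i at −0.08 and 0.05. Serpina5, the inhibitor of activated protein C, was measured with p53 present only, and past 2-fold there, with levels of 5.60 in WT and 12.0 in Aspp1-/- cells, a difference of 1.10.

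In the imprinted Dlk1-Dio3 domain 7 of the 8 listed genes had a member probe, 3 had a probe measured on all arrays, and the medians were 0.06 and −0.02. Meg3, the maternally expressed long non-coding RNA, was at −0.19 to −0.11 and −0.22 to −0.06, and Begain at 0.22 and 0.01. Dlk1, the paternally expressed Notch-related membrane protein, was at 0.47 and 0.02 on the probe measured everywhere, with levels of 39.7, 54.9, 47.5 and 48.1. Its second probe was measured with p53 present only, at 4.20 in WT and 8.66 in Aspp1-/- cells, a difference of 1.04.

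Among the 15 measured probes of transcription and chromatin genes the medians were −0.01 and 0.01, with 1 higher (Ncapg2) and 1 lower (Sp8) by 0.25 in both comparisons. The corepressor subunit Rcor1 was at −0.05 to 0.07 and −0.07 to 0.13, Brf1 of RNA polymerase III at 0.07 and −0.03, Zfp839 at −0.33 and −0.20, and Zbtb42 at 0.14 and 0.54. The 13 probes of RNA processing and translation had medians of 0.07 and 0.05 and none passed 0.25 in both. The list as drawn up also held Cinp, a gene of neither process. Of the 3 Cinp probes, 1 was at 0.55 and 0.14 and the others at 0.06 to 0.13 and 0.03 to 0.12. Kinases and phosphatase subunits had 11 measured probes with medians of −0.04 and −0.06, of which 2, Ckb and Cdc42bpb, were lower by 0.25 in both (4.45% of all probes passed in either direction), and Mok was at 0.17 and −0.02.

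The 12 cytoskeleton and transport probes had medians of −0.01 and −0.05, and the 10 of mitochondria and metabolism −0.08 and −0.02. By 0.25 in both comparisons, 1 of the 12 cytoskeleton and transport probes was higher and 1 lower. Of the 10 probes of mitochondria and metabolism, 1 was higher and 2 were lower. In the serpin cluster 0 of 10 probes were higher and 1 was lower. The Dlk1-Dio3, Ifi27 and Tcl1 lists had 0 in either direction. In the Ifi27 family of interferon-inducible genes Ifi27 had levels of 4798, 4512, 5728 and 6294 and Ifi27l2a 647, 473, 895 and 896, in the order WT, Aspp1-/-, p53-/- and Aspp1-/-p53-/-. Both were highest on the arrays without p53, and Ifi27l2a was at −0.45 on Aspp1 loss with p53 present and at 0.00 with p53 lost. All mice had received pIpC, which induces interferon. In the Tcl1 family 1 probe was measured on all arrays, Tcl1b2, with dim levels of 13.8, 7.73, 9.50 and 9.24. The medians over all probes were 0.01 and 0.00 in these comparisons, and the counts of a list past 0.25 in both stand beside the 4.45% of all probes given above.

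Loss of p53, whose gene Trp53 lies on chromosome 11, was compared in the same way. In p53-/- against WT 1 of 211 members passed, against 1.2% of all probes, and in Aspp1-/-p53-/- against Aspp1-/- 2 of 211, against 1.71%. At 1.5-fold 10 of 211 members (4.74%) passed in each, against 3.92% and 5.81%. With bounds the counts were 11 of 245, against 4.84%, and 13 of 250, against 4.86%. Jag2 was the 1 measured member past 2-fold the same way in both comparisons of p53 loss, against 0.246% of all probes.

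Jag2 encodes a ligand of Notch receptors. Its levels were 259 in WT and 189 in Aspp1-/- with p53 present, and 121 in p53-/- and 70.5 in Aspp1-/-p53-/- cells with p53 lost, so both arrays without p53 were below both arrays with it, and within each pair the array without Aspp1 was lower. The differences were −1.10 and −1.43 for p53 loss and −0.45 and −0.78 for Aspp1 loss (scanner error 0.20 to 0.21). In the additive model the p53 term was −1.26 ± 0.11 (SE; limma adjusted p = 0.307) and the Aspp1 term −0.62 ± 0.11 (SE; limma adjusted p = 0.606). Gpr132, its measured neighbour, had levels of 2022, 1662, 1557 and 1073 in the same order, with −0.38 and −0.63 for p53 loss. Slc24a4, a sodium, potassium and calcium exchanger, was well above background only on the arrays without p53, at 10.1 and 13.8, which gave 1.64 or more and 2.02 or more.

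At 0.25 the same way in both comparisons of p53 loss, 21 of 211 members (9.95%) passed, 11 higher and 10 lower, against 8.23% of all measured probes and 72 of 761 (9.46%) on the rest of chromosome 12. The 16 distal probes at 2.5 to 5 Mb included 4 (25%) that passed, 2 higher and 2 lower. Among them were A_55_P2092103 at 0.54 and 0.66 and the Vipr2 probe A_55_P2033676 at −0.59 and −0.61. In this group r between the comparisons of p53 loss was 0.66, against 0.37 over all other probes. The median size of the mean difference was 0.21, against 0.088. The larger recurring differences of this group were thus not particular to Aspp1 loss. A comparison of p53 loss and one of Aspp1 loss share an array, so their values for a probe are not independent. In a window of the same width around Trp53, the targeted gene on chromosome 11, 29 of 452 measured probes (6.42%) passed in the comparisons of p53 loss, with 7 of 45 within 1 Mb proximal and 8 of 80 within 1 Mb distal. The difference between the windows was not tested.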

How the data were processed

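The 4 arrays were Agilent 1-colour (Cy3) mouse arrays of design 028005, read with Feature Extraction 10.7.3.1 and placed on mm9, per the file headers. In the deposited files the processed intensity is linear, background-subtracted and not normalised between arrays; raw mean and background intensity and other values (flags of 0 or 1) are also deposited. The authors' value table holds log2 values, and its differences between arrays correlated with those computed here at r = 1 over 26465 probes; its column medians were −0.07, −0.04, 0.03 and 0.05 for WT, Aspp1-/-, p53-/- and Aspp1-/-p53-/-, and the choice of its constant per array is unknown.

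Control spots (3671 per array) and spots with a non-uniformity or outlier flag (120 to 172 gene spots) were dropped, repeat spots were averaged per probe on the log2 scale, and the 75th percentile of each array (535 to 597 in signal) was set to 100. No gene spot was saturated, and 50.3% to 53.3% of probes were well above background. Precision is limited by the number of arrays. Of the member probes, 204 were named by RefSeq accession, 20 by symbol, 3 by synonym, and 291 kept the file's name (RefSeq tables of GRCm38.p6, names only). A bound takes, for the dimmer array, its lowest signal well above background, or the probe's own value where that is higher. The additive model was fitted with limma 3.58.1 (R 4.3.3) over all 26465 probes with Benjamini-Hochberg adjustment, and tested on simulated data. Python 3.11.15 with pandas 2.3.3 and matplotlib 3.10.9 did the rest.

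Members named were drawn from those with the 10 largest mean differences per direction in the comparisons of Aspp1 loss, the 10 nearest measured genes per side, up to 4 per gene list, the 5 brightest genes, and those past 2-fold in both comparisons of the loss of a gene. A probe of chr12:103151385-103157735 (0.22 and 0.39 on Aspp1 loss), Mirg, Tcl1b4, Ifi27l2b and Tecpr2 met this rule and are not described above. Wdr60, Esyt2, Ptprn2, A_55_P2069550, the transcript chr12:117623500-117643575, Cyp46a1 and Abcb5 lie outside this rule and were named after their values were seen; Trip11 and Crip2 mark the edges. Members and lists were chosen with earlier results of these data known.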

Additional observations from a re-analysis of the deposited data

How the results depend on the processing

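No paired analysis was possible because each genotype has 1 array and no replicate numbers, and for the same reason no replicate could be left out. The size of 0.25, the limit to brighter probes and the keeping of flagged spots were chosen after seeing the data; leaving out non-uniform spots, planned as an alternative, was part of the processing from the start and was not run apart. Positions in exons, introns or UTRs were not analysed here.

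Members at least 0.25 the same way in both comparisons of Aspp1 loss numbered 22, and 10 with normexp background correction, where the share over all probes was 1.94%, and 12 with brighter probes only. In the distal group at 2.5 to 5 Mb the count was 5 to 8 under the alternatives run on it. The limma count at p under 0.05 before adjustment was 36 of 211, 21 of 266 with probes well above background on at least 1 array and 17 of 140 with brighter probes only, against 8.04%, 4.64% and 5.74% of all probes in the same settings; 0 members were called in any fit, and normexp called 1 probe of all.

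In Aspp1-/- minus WT the 2-fold count of 0 became 7 with bounds and 8 at 1.5-fold. In Aspp1-/-p53-/- minus p53-/- the count of 1 became 10 with bounds, 10 at 1.5-fold, and 0 with 1 probe per gene, in the 5 Mb window or with brighter probes. In p53-/- minus WT the count of 1 became 2 with quantile normalization, 11 with bounds and 10 at 1.5-fold. In Aspp1-/-p53-/- minus Aspp1-/- the count of 2 became 13 with bounds, 10 at 1.5-fold, and 1 with 1 probe per gene, in the 5 Mb window or with brighter probes. Over all probes the 1.5-fold shares in that order were 2.41%, 4.29%, 3.92% and 5.81%. The count past the rule in both comparisons of Aspp1 loss became 1 at 1.5-fold. The cause was not tested beyond the fewer probes or lower threshold of these settings. Among 79 named probes, the Aspp1 term moved by more than the scanner error in 4 cases and by less in 602, the 4 all with normexp (the Vipr2 probe to 0.52), and none was called.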
